A study of Mus musculus with 8 samples.

Results

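The nuclear genes of the mitochondrial respiratory chain were compared in hippocampal RNA of mice with and without a Cre transgene. They were chosen by symbol from the deposited count table. Symbols starting with Nduf, Uqcr or Atp5, symbols starting with Cox4 to Cox8, and Sdha, Sdhb, Sdhc and Sdhd were taken, and 4 pseudogene symbols containing -ps were dropped. This gave 93 of the 46078 genes in the table, under 92 symbols, because Uqcrc1 is listed at 2 places. By complex, 44 genes were assigned to complex I, 4 to complex II, 9 to complex III, 20 to complex IV and 16 to complex V. Against their symbols, Atp5sl was placed in complex I as an assembly factor, and Ndufa4 and Ndufa4l2 in complex IV. The symbols also take in 8 assembly factors of complex I and Atp5s, a factor associated with complex V. They leave out subunits with other names, such as the cytochrome c1 gene Cyc1, and the 13 subunits that mitochondrial DNA encodes.

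Complexes I and II pass electrons from NADH and from succinate to ubiquinone, complex III passes them on to cytochrome c, and complex IV passes them to oxygen. Complexes I, III and IV move protons across the inner mitochondrial membrane, and complex V, the ATP synthase, makes ATP as the protons flow back. Neurons draw most of their ATP from this chain, and several of its subunits exist as paired isoforms, one used in most tissues and one known from muscle, lung or testis.

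RNA came from the hippocampus of C57BL/6J mice aged 9 weeks, with 4 wild-type (WT) libraries and 4 from animals carrying 1 copy of Tg(Camk2a-cre)2Gsc (Cre; the line is also called CamiCre). In this line, regulatory DNA of Camk2a, a gene of forebrain excitatory neurons, drives the Cre recombinase, and the labels name no floxed allele in either group. The labels do not say whether each library is from its own animal, so p-values measure the spread between libraries, which may be technical. The libraries held 21339996 to 27826871 counts, and those of the respiratory chain genes made up 0.791% to 0.848% of the counts of tested genes in a library. The excitatory neuron markers Slc17a7 and Camk2a stood at 1688 ± 90.2 and 4652 ± 120 CPM (counts per 1000000 normalised library counts; mean ± SD, n = 4) in WT, and all 8 markers fixed for these neurons were detected. One library stood apart: the summed level of 8 choroid plexus markers was 1576 CPM in WT replicate 1 and 122 to 159 CPM in the other 7. Cre replicate 1 had the highest sums of microglia markers (434 CPM, against 302 to 339 in the others) and of astrocyte markers (5287 against 4267 to 4799).

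The promoters of these genes are known for sites of the nuclear respiratory factor NRF1, of ETS factors such as GABPA and of YY1. RefSeq promoter windows on GRCm38.p6, from 250 bases before to 50 bases after the first listed start, were found for 76 of the 92 symbols. The core letters of the NRF1 site, which read the same on both strands and are the capitals in the first set of stretches shown here, occurred in 7 of the 76 windows (9.21%), against 0.977% of all 27025 windows and 1.95% of the windows of tested genes. The letters CCGGAAG (ETS), on either strand, occurred in 16 (21.1%), against 9.12% and 16.2%. The letters GCCATNTTG (YY1), on either strand, occurred in 12 (15.8%), against 2.65% and 4.09%. None of these strings contains another, and 3 of the windows held 2 of them. A match is a description of the letters and no evidence of binding. Of the 12 windows with the YY1 letters, 8 belonged to complex I, which has 39 of the 76 windows.

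The 120 bases before the start are shown, 5′ to 3′ on the gene's strand and with the NRF1 letters in capitals, for the 4 members in which this match lies wholly in that stretch. These are Atp5g2 (a c subunit of the ATP synthase rotor; chr15:102671048-102671167, minus strand), Ndufa11 (a membrane subunit of complex I; chr17:56717642-56717761, plus strand), Ndufaf4 (a complex I assembly factor; chr4:24897963-24898082, plus strand) and Atp5k (a membrane subunit of the ATP synthase; chr5:108434400-108434519, minus strand).
Atp5g2: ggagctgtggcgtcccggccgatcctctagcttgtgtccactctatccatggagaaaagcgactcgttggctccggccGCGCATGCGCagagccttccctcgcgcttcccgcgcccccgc
Ndufa11: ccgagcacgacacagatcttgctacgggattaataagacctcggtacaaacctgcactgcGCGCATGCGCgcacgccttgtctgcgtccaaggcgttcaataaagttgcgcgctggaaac
Ndufaf4: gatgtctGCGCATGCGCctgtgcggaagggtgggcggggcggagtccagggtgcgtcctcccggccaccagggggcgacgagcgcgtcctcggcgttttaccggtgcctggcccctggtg
Atp5k: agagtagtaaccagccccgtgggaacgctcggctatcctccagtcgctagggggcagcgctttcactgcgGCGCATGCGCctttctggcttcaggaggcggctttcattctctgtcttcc

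The same stretch is shown with the ETS letters in capitals for a subunit each of complexes II, III and V, and with the YY1 letters in capitals for Ndufb5, an accessory subunit of complex I. The ETS examples are Uqcrh (the hinge protein of complex III; chr4:116075071-116075190, minus strand), Sdhd (a membrane anchor of complex II; chr9:50603850-50603969, minus strand) and Atp5e (the epsilon subunit of complex V; chr2:174464102-174464221, minus strand). In all 3 the match reads on the strand opposite to the gene, as it does in Ndufb5 (chr3:32736943-32737062, plus strand).
Uqcrh: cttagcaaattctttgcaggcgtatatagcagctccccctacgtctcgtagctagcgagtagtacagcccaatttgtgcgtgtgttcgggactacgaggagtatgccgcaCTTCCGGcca
Sdhd: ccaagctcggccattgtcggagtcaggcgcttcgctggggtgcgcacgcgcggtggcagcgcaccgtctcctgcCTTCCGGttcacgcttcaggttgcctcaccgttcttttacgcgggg
Atp5e: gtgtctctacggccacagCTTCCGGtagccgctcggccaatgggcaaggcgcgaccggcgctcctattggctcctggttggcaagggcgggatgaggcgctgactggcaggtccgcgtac
Ndufb5: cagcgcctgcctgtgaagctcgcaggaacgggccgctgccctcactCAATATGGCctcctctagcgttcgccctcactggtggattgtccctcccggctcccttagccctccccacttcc

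The fold changes in Cre were also read by these letters. The median log2 fold change (Cre over WT) was -0.03 over the 7 tested genes with the NRF1 letters and -0.01 over the 67 without. It was -0.02 over the 16 with the ETS letters and -0.01 over the 58 without, and 0.01 over the 12 with the YY1 letters and -0.02 over the 62 without. These medians are descriptions, with no test.

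The comparison of Cre with WT asked which hippocampal transcripts differ when only the transgene is carried. Of the 93 respiratory chain genes, 89 had enough counts to be tested, and none was called by edgeR's quasi-likelihood test at a Benjamini-Hochberg adjusted p under 0.05. Over all 15859 tested genes, 5 were called (0.0315%). The lowest adjusted p among the 89 was 0.9995, and DESeq2 and limma voom called none of them either. At an unadjusted p under 0.05, 2 of the 89 passed in the edgeR test, Uqcrc1 and Uqcrc2, both lower in Cre. Of all tested genes 3.5% passed, and 1.45% passed with a lower level in Cre. DESeq2 gave the same 2, and limma voom gave 3, with Ndufv1 added. The 2 of 89 are near that background. Many of these genes have processed pseudogene copies in the genome, and how reads that fit several places were counted is not given in the sources used here, so the level of a gene with close copies is uncertain.

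Fitted changes were small and estimated with little error. The log2 fold changes of the 89 ran from -0.41 to 0.10, with a median of -0.02, and the median over all tested genes was 0.0004. The median standard error was 0.05, against 0.07 over all tested genes. For 83 of the 89, the 95% confidence interval of the fold lay wholly between 0.8 and 1.25, so neither a fold of 1.25 nor one of 0.8 lies inside it. The 6 whose interval was wider are the genes with a mean under 10 CPM: Cox4i2, Cox6a2, Cox6b2, Cox7a1, Ndufa4l2 and Ndufaf6. The fitted change was below 0 for 55 of the 89 (61.8%) and for 49.8% of all tested genes. That count moved with single libraries: it was 36 without Cre replicate 1, 41 without WT replicate 4 and 43 without WT replicate 1.

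**Figure D1:**
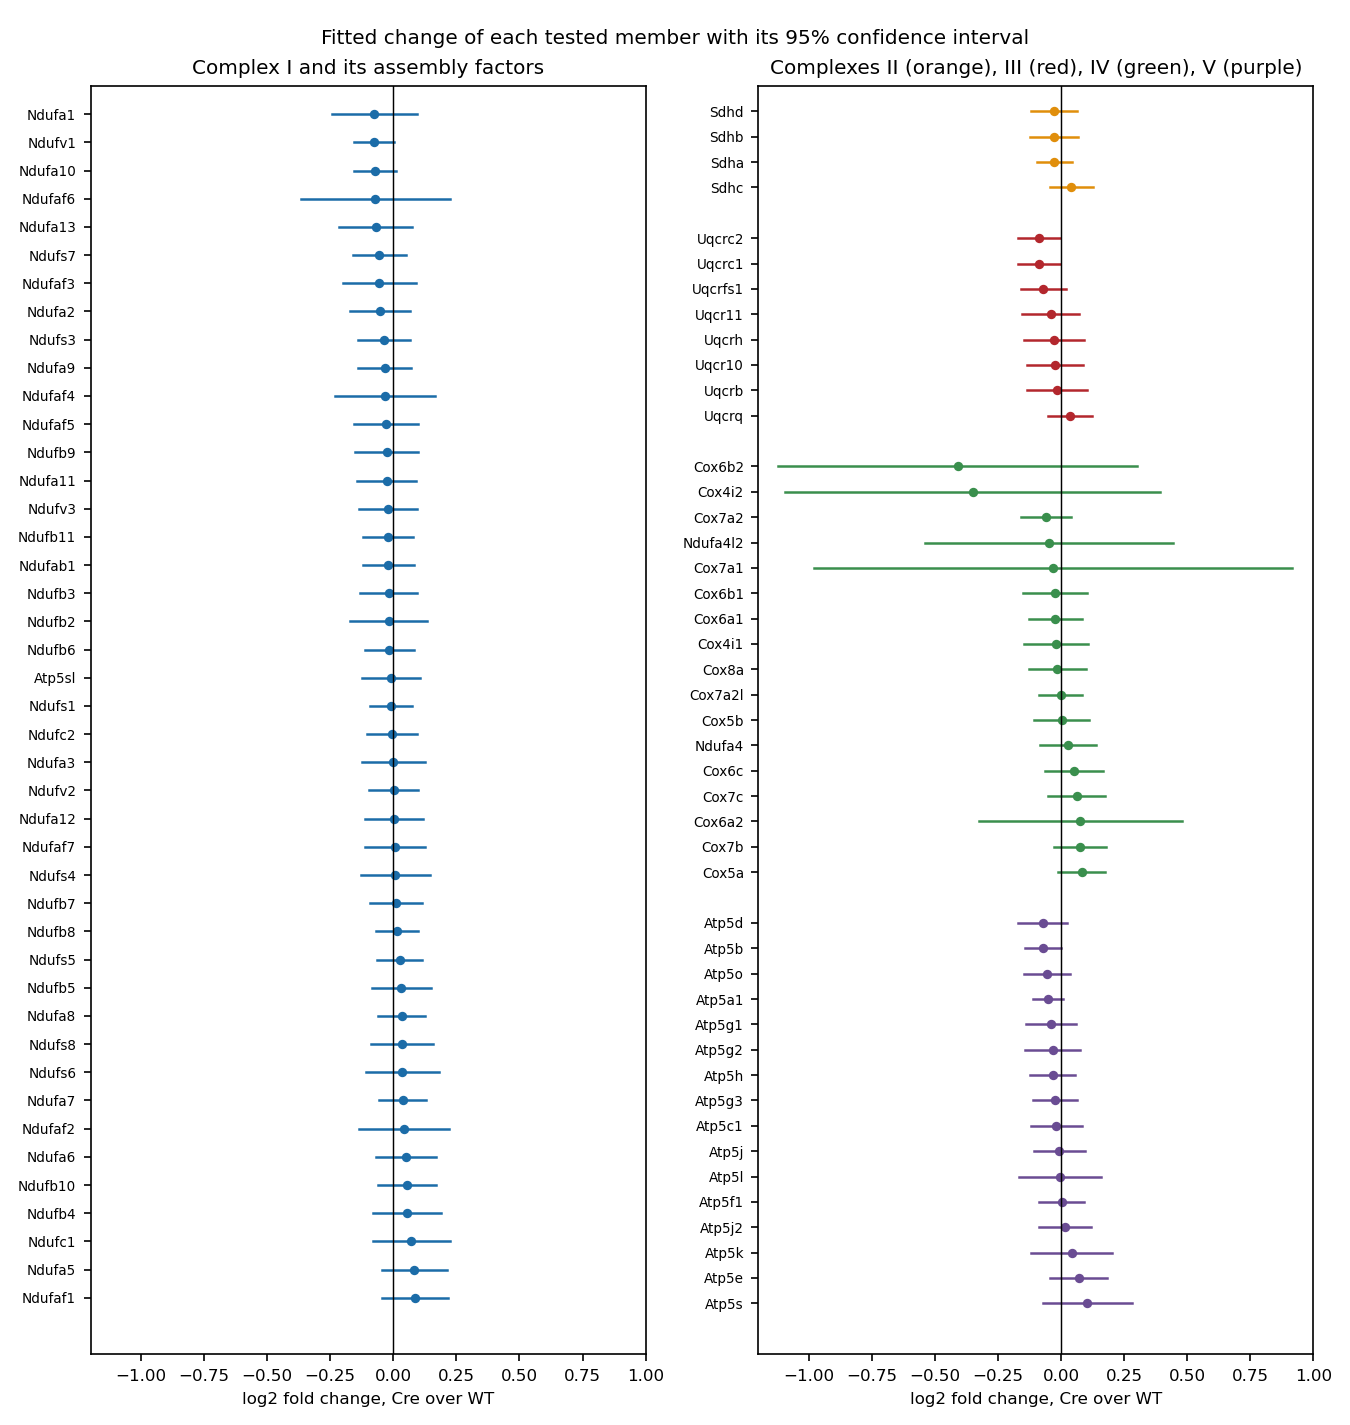
Fitted log2 fold change (Cre over WT, x axis) of 88 of the 89 tested genes, ordered within its complex, with its 95% confidence interval as a line. The intervals of Uqcrc1 and Uqcrc2 end just below 0, and the widest intervals belong to Cox7a1, Cox4i2 and Cox6b2, which have few counts.

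By complex, 24 of 44 genes of complex I were below 0 (median -0.01), 3 of 4 of complex II (median -0.03), 7 of 8 of complex III (median -0.03), 10 of 17 of complex IV (median -0.01) and 11 of 16 of complex V (median -0.02). With 1 library left out, the median of complex I ran from -0.0247 to 0.0153, of complex II from -0.0387 to -0.0124, of complex III from -0.0664 to -0.0136, of complex IV from -0.0301 to 0.0181 and of complex V from -0.0403 to -0.00406. Complex I was above 0 without WT replicate 1, WT replicate 4 or Cre replicate 1, and complex IV without any of these or Cre replicate 2. Each median was smaller in size than the SD between the WT libraries of that complex's mean log2 CPM. For complex III that mean was lowest in Cre replicate 1, at -0.08, and highest in WT replicate 4, at 0.07, relative to the mean of the 8 libraries.

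In complex I, the core subunits that carry the flavin and the iron-sulfur centres were below 0 in 5 of 7 cases, the 29 accessory subunits in 14, and the 8 assembly factors in 5. The lowest p belonged to Ndufv1, the subunit that binds the flavin and takes electrons from NADH (GRCm38, chromosome 19, 4007384 to 4012806, minus strand). Its level was 154, 152, 152 and 157 CPM in WT replicates 1 to 4 and 140.2, 147, 148 and 148 CPM in Cre. The Cre libraries all lay below the WT libraries, at 146 ± 3.78 against 154 ± 2.68 CPM (SD, n = 4). The log2 fold change was -0.08 (SE 0.04) with an unadjusted p of 0.0620 in edgeR's test. The exact permutation test gave 0.0286, the smallest p that 4 against 4 libraries allow. Groups that do not overlap always give this p, so it adds nothing to the lack of overlap. Ndufv1 was 1 of 3 tested respiratory chain genes whose groups did not overlap, all 3 lower in Cre, and 2.31% of all tested genes had groups that did not overlap (1.03% with Cre lower).

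The other complex I genes stood as close. Ndufa10, an accessory subunit, averaged 131 ± 2.94 CPM in WT against 125 ± 2.81 in Cre (-0.07, SE 0.04, on the log2 scale of the fit). On the other side of 0, the assembly factor Ndufaf1 had 16.8 ± 0.530 CPM in WT and 17.8 ± 0.939 in Cre (0.08, SE 0.06), and the accessory subunit Ndufa5 had 31.6 ± 1.77 and 33.5 ± 2.31 CPM (0.08, SE 0.06). In all 3 the groups overlapped.

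Complex II, succinate dehydrogenase, has 4 subunits, all encoded in the nucleus. Sdha, the flavoprotein (chromosome 13, 74322254 to 74350280, minus strand), had 401, 394, 394 and 408 CPM in WT and 384, 407, 389 and 388 in Cre. The groups overlapped, and the log2 fold change was -0.03 (SE 0.03). Sdhb, the iron-sulfur subunit, had 92.6 ± 2.98 CPM in WT and 90.8 ± 4.11 in Cre (-0.03, SE 0.04). The membrane anchor Sdhc had 68.6 ± 2.29 and 70.5 ± 1.88 CPM (0.04, SE 0.04), and the other anchor, Sdhd, had 55.9 ± 1.72 and 54.8 ± 1.97 CPM (-0.03, SE 0.04).

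Complex III held both genes at an unadjusted p under 0.05. Uqcrc1 and Uqcrc2 encode the 2 large core proteins on the matrix side of the complex, which stabilise it. Uqcrc1 (chromosome 9, 108936633 to 108949623, plus strand) had 226, 216, 222 and 228 CPM in WT and 200.3, 213, 219 and 208 in Cre. Uqcrc2 (chromosome 7, 120635176 to 120659524, plus strand) had 172, 168, 166 and 180.3 CPM in WT and 157, 163, 162 and 164 in Cre. For Uqcrc1, Cre replicate 3 lay above WT replicate 2, and for Uqcrc2 all Cre libraries lay below all WT libraries. Means were 223 ± 5.35 and 210.0 ± 7.84 CPM for Uqcrc1 (log2 fold change -0.09, SE 0.04, unadjusted p = 0.0409 in edgeR's test, exact permutation p = 0.0571). They were 172 ± 6.36 and 161 ± 3.18 CPM for Uqcrc2 (-0.09, SE 0.04, unadjusted p = 0.0416, exact permutation p = 0.0286).

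Neither kept its unadjusted p under 0.05 whichever library was left out. The fitted log2 fold change of Uqcrc1 ran from -0.108 to -0.065 with 1 library left out, with a p of 0.122 without Cre replicate 1. That of Uqcrc2 ran from -0.102 to -0.0628, with a p of 0.143 without WT replicate 4. Uqcrfs1, the Rieske iron-sulfur protein and a catalytic subunit, had 95.8 ± 2.34 CPM in WT and 91.3 ± 3.28 in Cre (-0.07, SE 0.04), and the groups overlapped. The small subunit Uqcrq was the only complex III gene above 0, at 68.6 ± 2.84 and 70.3 ± 1.08 CPM (0.04, SE 0.04).

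**Figure D2:**
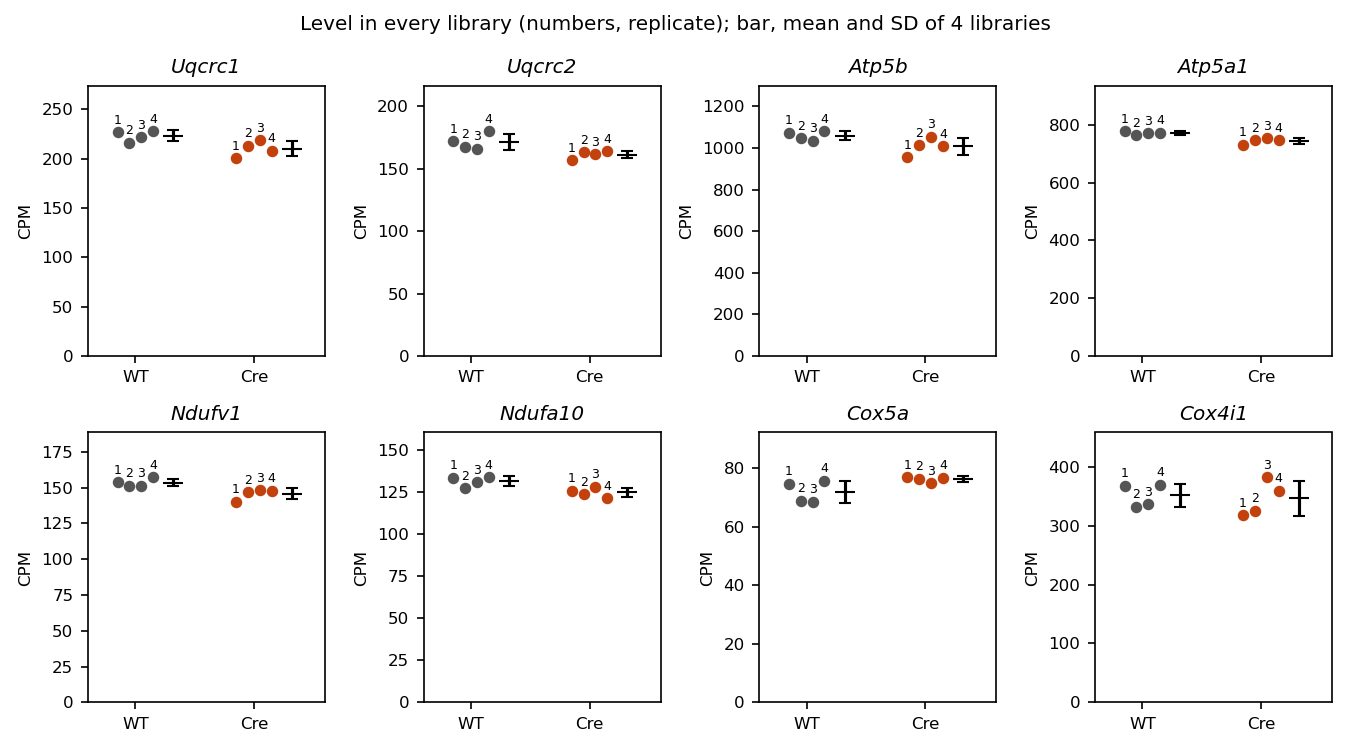
Level in CPM (y axis, from 0) of 8 genes in each WT and Cre library, with the replicate number above each point and the mean and SD of 4 libraries as a bar. Cre replicate 1 is the lowest of the 8 libraries for Uqcrc1, Uqcrc2, Atp5b, Atp5a1, Ndufv1 and Cox4i1, and the highest for Cox5a.

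In complex V, the F1 head holds the catalytic and regulatory subunits. Atp5b, the catalytic beta subunit (chromosome 10, 128083273 to 128090391, plus strand), had 1074, 1048, 1036 and 1082 CPM in WT and 957, 1015, 1055 and 1008 in Cre. Cre replicate 3 lay within the WT range, and the log2 fold change was -0.07 (SE 0.03) with an unadjusted p of 0.0537 in edgeR's test. Atp5a1, the alpha subunit, had 779, 764, 772 and 773 CPM in WT and 731, 747, 753 and 746 in Cre. Its groups did not overlap, at 772 ± 6.31 and 744 ± 9.34 CPM (-0.05, SE 0.03, unadjusted p = 0.0780 in edgeR's test, exact permutation p = 0.0286). Among the other F1 genes, Atp5d (delta) had 124 ± 5.91 and 118 ± 4.17 CPM (-0.07, SE 0.05) and Atp5e (epsilon), the only one above 0, had 35.4 ± 1.83 and 37.1 ± 1.72 CPM (0.07, SE 0.05). The 4 genes of the peripheral stalk, which holds the head in place, were below 0 in 3 cases, and the 6 genes of the membrane part in 4. All 10 lay from -0.0547 to 0.0419. Atp5s, an associated factor counted with complex V, had the highest log2 fold change of the 89. Its level was 10.1 ± 0.617 CPM in WT and 10.9 ± 0.807 in Cre (0.10, SE 0.08), and the groups overlapped.

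In complex IV, cytochrome c oxidase, the 11 isoforms used in most tissues were below 0 in 5 cases, with a median of 0.003. Cox5a, a matrix-side subunit (chromosome 9, 57521274 to 57532426, plus strand), had the lowest p. Its level was 74.7, 69.0, 68.6 and 75.8 CPM in WT and 76.9, 76.5, 74.9 and 76.8 in Cre. Cre replicate 3 lay below WT replicate 4, so the groups overlapped, and the log2 fold change was 0.08 (SE 0.04) with an unadjusted p of 0.0782 in edgeR's test. Cox7b had 60.4 ± 2.66 CPM in WT and 63.6 ± 3.27 in Cre (0.08, SE 0.05), and Cox7a2 had 65.6 ± 2.13 and 63.0 ± 3.29 (-0.06, SE 0.05). Cox4i1, the largest nuclear subunit, had 351 ± 19.9 and 346 ± 29.6 CPM (-0.02, SE 0.06), and Cre replicates 1 and 3 were at 318 and 382. Cox7a2l, a relative of Cox7a2, had 95.3 ± 3.07 and 95.1 ± 1.84 CPM.

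CPM depends on transcript length, so levels of different genes were compared as CPM per kb of transcript. On that scale the order in WT began with Atp5b (553 ± 11.4), Cox4i1 (472 ± 26.7), Cox8a (326 ± 20.8), Atp5a1 (312 ± 2.55) and Cox6a1 (286 ± 12.5). Cox8a and Atp5a1 differed by less than the SD of Cox8a, as did Atp5g3 (228 ± 8.53) and Cox6c (223 ± 10.4), which followed. The order rests on the transcript length used, here the main transcript of each gene. With the longest transcript the first 5 were in the same order. With the exons of all transcripts they were the same 5 genes in another order, Cox8a (289), Atp5b (250.2), Atp5a1 (246), Cox6a1 (233) and Cox4i1 (227). The first 5 genes were in the same order in Cre, and Atp5g3 and Cox6c were in the opposite order. With the main transcripts, the highest levels in the other complexes were Ndufb9 in complex I (146 ± 7.66), Sdha in complex II (138 ± 2.32) and Uqcrc1 in complex III (135 ± 3.24). Sdha and Uqcrc1 differed by less than the SD of Uqcrc1. The median over the tested genes of a complex was 54.9 CPM per kb in complex I, 63.2 in complex II, 92.95 in complex III, 112 in complex IV and 117 in complex V. With the exons of all transcripts the medians were 31.2, 43.4, 62.8, 64.5 and 37.2, so the place of complex V depended on the length. Within complex I, the 8 assembly factors had 4.93 (Ndufaf6) to 18.2 (Ndufaf5) CPM per kb in WT, and all 7 core subunits had 53.4 (Ndufv2) or more. With the exons of all transcripts these were 12.5 at most and 17.6 at least.

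**Figure D3:**
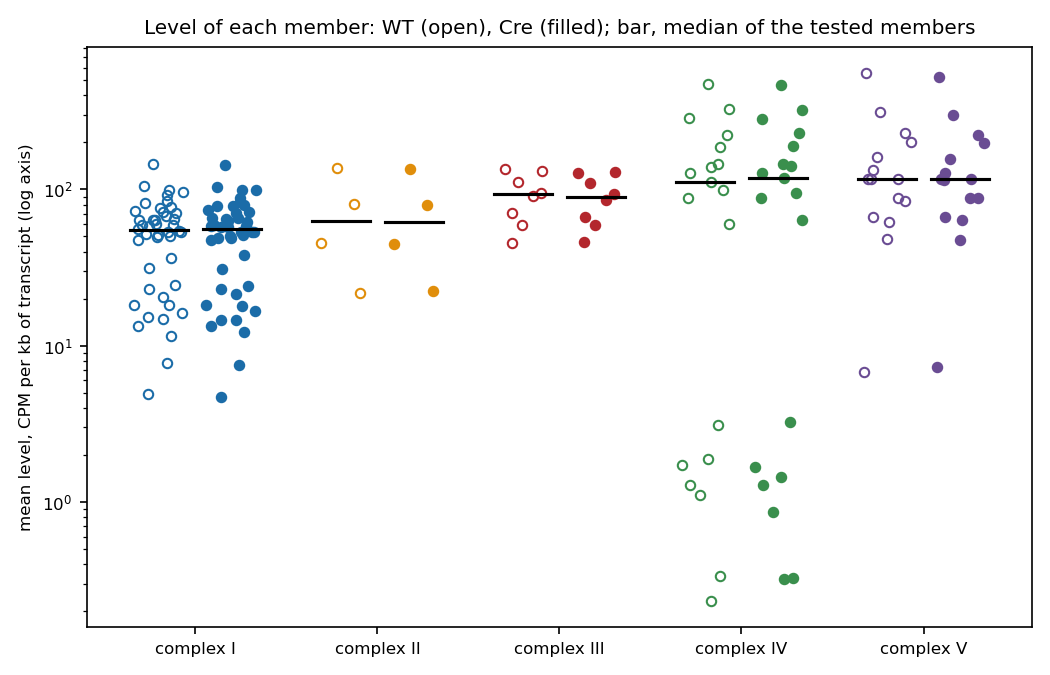
Mean level of each gene in CPM per kb of transcript (log axis) by complex, in WT (open circles) and Cre (filled circles), with the median of the tested genes as a bar. The WT medians run from 54.9 in complex I to 117 in complex V, and 7 genes of complex IV form a separate low group from Cox6a2 (3.09) downwards.

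The low group of complex IV held isoforms other than the common ones. Of these, 6 were set against their common partners as a share of the summed level per length. In bulk RNA, a low level does not tell whether an isoform is confined to few cells. Cox4i2, the isoform known from lung, made up 0.234% ± 0.106 of Cox4i1 and Cox4i2 together in WT and 0.184% ± 0.0251 in Cre (SD, n = 4). The isoforms of heart and skeletal muscle were Cox6a2 (1.07% ± 0.209 and 1.14% ± 0.196), Cox7a1 (1.27% ± 0.737 and 1.33% ± 0.505) and Cox8b (0.103% ± 0.133 and 0.0969% ± 0.0899). Cox6a2 is also known from parvalbumin interneurons. Cox6b2, known from testis, made up 1.29% ± 0.479 and 1.02% ± 0.371, and Ndufa4l2, a hypoxia-induced relative of Ndufa4, 0.908% ± 0.200 and 0.869% ± 0.178. For each of the 6, the difference between the groups was smaller than the SD in WT. Of 4 muscle markers, Ckm (0 to 0.107 CPM), Tnnt3 (0 to 0.0837) and Myh1 (0.222 to 0.460) were below the filter on low counts, and Acta1 stood at 3.55 to 5.67 CPM.

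Single counts set the precision of these isoforms. Cox4i2 had 34, 18, 22 and 9 counts in WT and 13, 12, 23 and 14 in Cre, or 1.26, 0.6672, 0.914 and 0.370 CPM and 0.544, 0.567, 0.822 and 0.571 CPM. Cox6b2 (chromosome 7, 4751792 to 4753094, minus strand) had 1.52, 1.22, 0.581 and 0.864 CPM in WT and 1.004, 0.662, 0.501 and 1.02 in Cre. In both genes WT replicate 1 was the highest library, and the groups overlapped widely. Their log2 fold changes, -0.35 (SE 0.34) for Cox4i2 and -0.41 (SE 0.33) for Cox6b2, were the lowest among the 89. Without WT replicate 1, the library with the high choroid plexus markers, they were -0.0415 and -0.175. The part of those markers in the result was not tested.

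The symbols below the filter were 3 isoforms. Cox8c, known from testis, had 0 counts in every library, which allows up to 0.107 to 0.142 CPM (3 counts). Cox7b2, also known from testis, had 1 to 6 counts in a library. Cox8b had 9, 4, 0 and 0 counts in WT and 0, 1, 6 and 5 in Cre. The second listing of Uqcrc1 had 0 counts throughout, so all counts of this gene were under 1 entry.

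**Figure D4:**
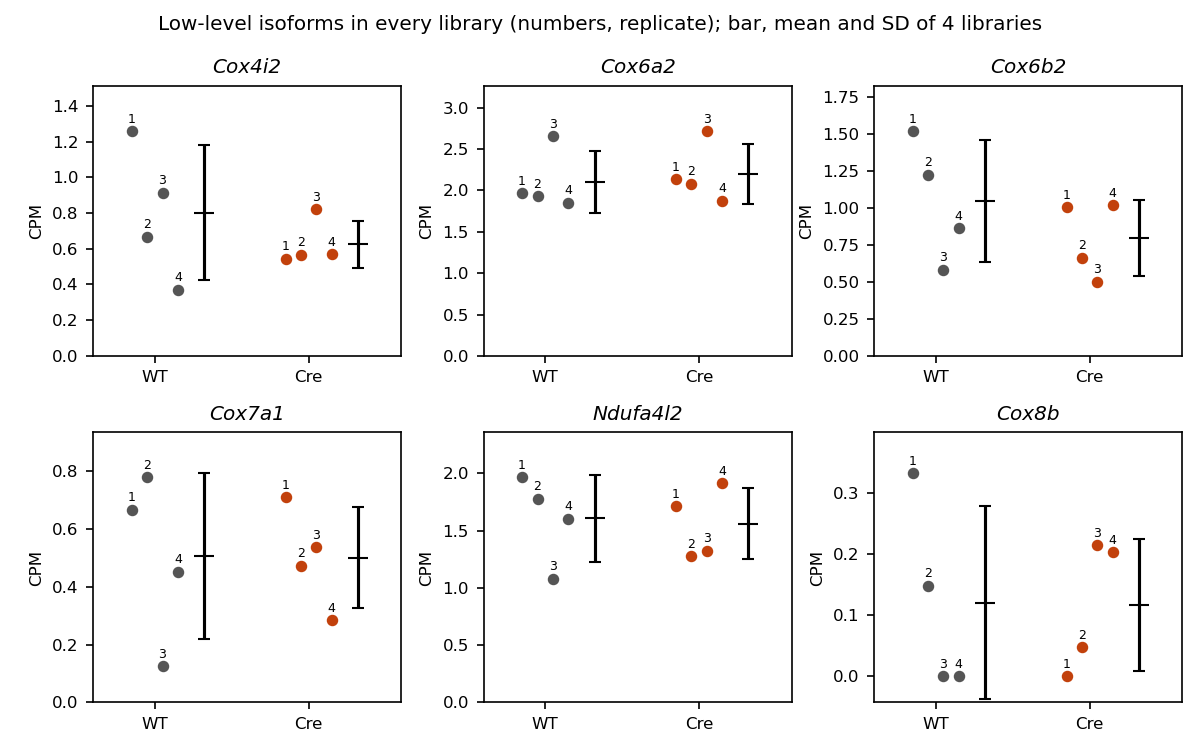
Level in CPM (y axis) of 6 low isoforms in each WT and Cre library, with the replicate number above each point and the mean and SD of 4 libraries as a bar. WT replicate 1 is the highest library for Cox4i2, Cox6b2, Ndufa4l2 and Cox8b, and WT replicate 3 the lowest for Cox7a1 and Ndufa4l2.

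The c subunit of the ATP synthase rotor comes from 3 genes that encode the same mature protein with different import sequences. In WT, Atp5g3 made up 52.0% ± 1.01 of their summed level per length, Atp5g1 36.9% ± 1.01 and Atp5g2 11.05% ± 0.356. In Cre the shares were 52.3% ± 1.34, 36.6% ± 1.40 and 11.04% ± 0.377. The differences between groups were smaller than the SD in either group. The order of Atp5g1 and Atp5g2 depended on the length used: with the exons of all transcripts, Atp5g1 made up 17.0% and Atp5g2 18.3% in WT.

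The genes varied together from library to library within each group. Relative to the mean of the 8 libraries, the mean log2 CPM of the 86 genes at 1 CPM or more was 0.04, -0.05, -0.04 and 0.06 in WT replicates 1 to 4 and -0.06, -0.01, 0.03 and 0.03 in the Cre replicates. WT replicates 1 and 4 were high and WT replicates 2 and 3 and Cre replicate 1 were low, and the groups overlapped. The same 3 libraries were the lowest in complexes I, II and V and among the common complex IV isoforms. The summed level of all members was 8455, 8060, 8056 and 8570 CPM in WT and 7812, 8103, 8370 and 8247 in Cre. Genes of the cytosolic ribosome, added after these values were seen, were read in the same way. Their centred means were 0.01, -0.05, -0.08 and 0.05 in WT replicates 1 to 4 and -0.07, -0.02, 0.06 and 0.09 in the Cre replicates. In each library the sign was that of the 86 genes, so this pattern was not particular to the respiratory chain.

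Cre replicate 1, the lowest library for the 86 genes at 1 CPM or more, had the highest sums of astrocyte, oligodendrocyte (5184 CPM) and microglia markers. All 8 microglia markers and all 8 astrocyte markers were above 0 in Cre over WT, 5 and 3 of them at an unadjusted p under 0.05 and none at an adjusted one, with medians of 0.19 and 0.10. All 8 oligodendrocyte markers were above 0 too (median 0.15, 2 at an unadjusted p under 0.05), and of the 8 excitatory neuron markers 5 were above 0 (median 0.01). Of all tested genes, 2.05% were higher in Cre at an unadjusted p under 0.05. The oligodendrocyte markers did not rise in every Cre library. Their centred mean log2 CPM was 0.283, 0.122, 0.007 and -0.152 in Cre replicates 1 to 4, and Cre replicate 4 was the lowest of the 8 libraries. The part of the cell type markers in the levels of the respiratory chain genes was not tested. In bulk RNA, fewer cells of a type and less RNA per cell cannot be told apart.

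**Figure D5:**
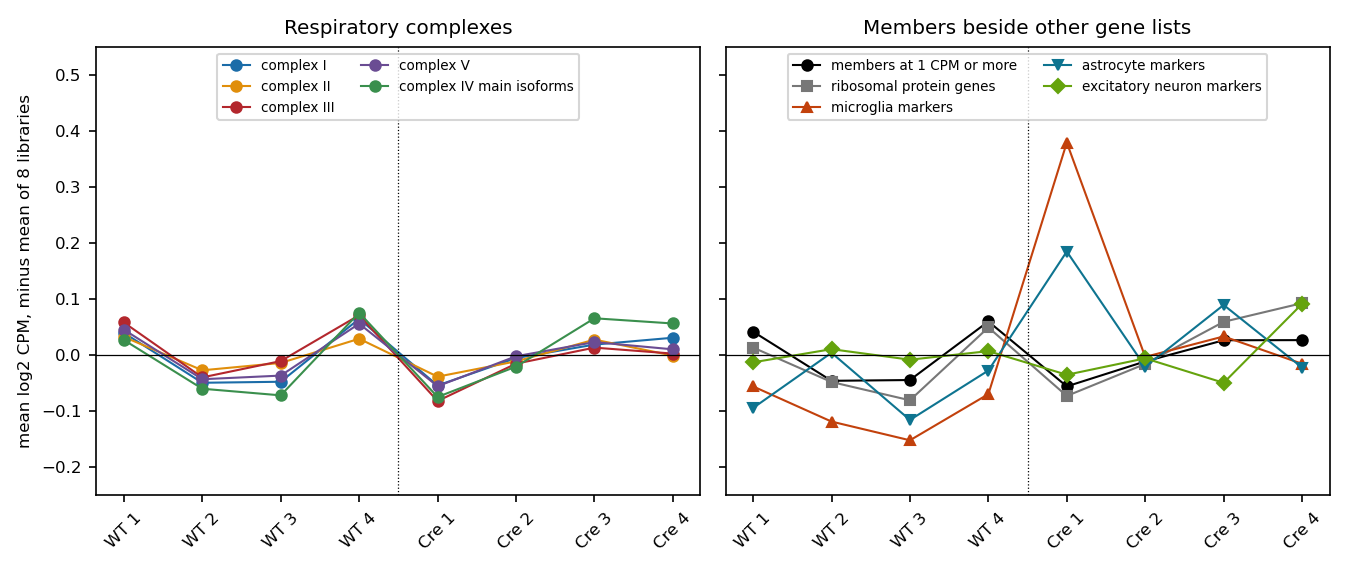
Mean log2 CPM of each gene list in each library, minus its mean over the 8 libraries (y axis), for complexes I, II, III and V and the 11 common isoforms of complex IV (left) and for the 86 genes at 1 CPM or more beside ribosomal protein genes and cell type markers (right). The lists on the left stay within 0.10 of 0, WT and Cre libraries overlap, and the microglia markers peak in Cre replicate 1.

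The remaining genes of the pathway were read from lists. Of the 13 subunits encoded by mitochondrial DNA, 12 were tested, and 10 were above 0 (median 0.08). Their WT levels differed widely: mt-Co1 had 11040 ± 374 CPM, mt-Co2 5.98 ± 1.09, mt-Atp6 8.24 ± 1.6 and mt-Nd4l 2.22 ± 0.383. How reads that fit several places were counted is not given, so the low levels and their directions are uncertain. The only one of the 12 at an unadjusted p under 0.05 in edgeR's test was mt-Co3 (log2 fold change -1.42, SE 0.58). Its value rested on 1 library, WT replicate 3 at 49.9 CPM, against 6.19 to 8.52 CPM in the other 7. mt-Cytb, the catalytic cytochrome b of complex III, had 4176 ± 264 CPM in WT and 4445 ± 252 in Cre (0.09, SE 0.05, unadjusted p = 0.0803 in edgeR's test). Of the 8 tested nuclear genes of complex III chosen by symbol, 7 were below 0. Cyc1, outside the symbol rule, was below 0 too (-0.04, SE 0.04).

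For assembly factors outside the symbol rule, the medians of the lists were near 0 as well, while single genes lay further out. Of 23 complex IV assembly genes tested, 13 were above 0 and 10 below (median 0.03, range -0.21 to 0.24). Cox20, which helps to insert a mitochondrially encoded subunit, had 7.57 ± 0.413 CPM in WT and 8.81 ± 0.340 in Cre (0.22, SE 0.08, unadjusted p = 0.0191 in edgeR's test). Of 9 complex I assembly genes, 7 were above 0, with Tmem186 at 0.12 (SE 0.06, unadjusted p = 0.0468 in edgeR's test). In Cox20 and Tmem186 all Cre libraries lay above all WT libraries, as in 1.29% of all tested genes. The 4 genes for complex II were all above 0 (median 0.04), the 6 for complex III were 3 above and 3 below, and of the 4 for complex V 3 were below. Of 12 further nuclear genes, a mixed list of subunits, carriers and genes with other roles, 8 were above 0. Among them Usmg5, a small ATP synthase subunit, had the lowest p (log2 fold change 0.10, SE 0.06).

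Regulators of mitochondrial biogenesis, the factors that act on these promoters among them, were 9 above and 11 below 0 of 20 tested (median -0.02). Nrf1 had 18.6 ± 1.01 CPM in WT and 18.6 ± 0.391 in Cre, Gabpa 27.6 ± 2.14 and 28.9 ± 2.05, Yy1 57.6 ± 2.81 and 56.5 ± 2.72, and the coactivator Ppargc1a 51.8 ± 2.56 and 49.6 ± 3.52. The lowest p in the list belonged to Nfe2l2, a factor of the oxidative stress response, with 11.8 ± 1.40 and 14.01 ± 1.17 CPM (0.25, SE 0.09, unadjusted p = 0.0197 in edgeR's test). None of these genes was called at an adjusted p under 0.05.

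In the authors' deposited table, 91 of the respiratory chain genes are listed, none with a p-value under 0.05. Its log2 fold changes for the tested ones differed from those fitted here by at most 0.0079.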

How the data were processed

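Poly(A) RNA-seq libraries were sequenced in 1 lane, per the labels' protocols. The authors deposited raw counts of reads, as whole numbers, for each gene symbol in each library. STAR 2.6.1d, featureCounts, edgeR 3.11 and GRCm38 are named, per the submitters' processing notes, with no word on the annotation, the strand setting or the handling of multi-mapped reads (not given in the sources used here). The authors also deposited a comparison table with a log2 fold change, a p-value and a log2 abundance, besides a signed fold and a linear abundance treated as scores and not used; whether that p-value is adjusted is not stated.

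Genes were filtered with filterByExpr (minimum count 10, minimum total 15), normalised by the trimmed mean of M values (factors 0.988 to 1.01) and tested with edgeR 4.0.16 in R 4.3.3 (quasi-likelihood, 2-sided, no covariate, Benjamini-Hochberg over 15859 genes, threshold 0.05). The script was tested on simulated data. Fold changes are Cre over WT, and intervals come from the fitted standard errors. Single genes were also compared by a 2-sided exact permutation test on log2 CPM (prior count 2). Its smallest p is 0.0286, which is fixed for genes whose groups do not overlap. DESeq2 1.42.0, limma 3.58.1 (voom), other normalisations, no filter, a replicate block and leaving out each library were alternatives.

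Levels per kb use the shortest RefSeq-matched principal transcript of GENCODE M21 (GRCm38), a choice made after the data were seen; Atp5o had no unambiguous length. Positions are from the same annotation and matched 92 of the 93 genes. Correlations between same-numbered libraries of the 2 groups ran from -0.114 to 0.203, and between those of different numbers from -0.179 to 0.184. The highest was that of WT replicate 1 with Cre replicate 1. So few values cannot settle whether the numbers pair the libraries, and the main fit used no pairing. One gene's values are not reported here. The members, gene lists and markers were chosen with earlier results of these data known. Named genes are, in each complex, the 4 with the smallest p and the one with the highest level, the complex II subunits, the paralog sets, genes whose groups do not overlap, untested ones, and up to 2 of each list. Ndufaf5, Ndufaf6, Ndufv2, Ndufa4l2, Cox6c, Slc17a7, Camk2a, Cyc1, the muscle markers, Nrf1, Gabpa, Yy1 and Ppargc1a were picked outside this rule, once their values had been seen. So were Atp5s, Atp5sl, mt-Co1, mt-Co2, mt-Atp6 and mt-Nd4l. Genes with printed promoters were picked by where the match lies. Limits from 3 counts cover counting error only, and no 2 libraries of a group agreed within sampling noise.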

Additional observations from a re-analysis of the deposited data

Results flagged for a closer look

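A library far from the other 3 of its group, by a gap that took up most of the group's range, was looked for in 64 groups of single genes (WT and Cre of 32 genes) and in 12 groups of complex means. It was found in 4, all single genes, and chance gives such a gap in about 1 of 20 groups, so 4 of 76 is about what chance gives. Sdhd, a membrane anchor of complex II, had 57.7 CPM in Cre replicate 3 and 53.7 to 53.8 CPM in the other Cre libraries. Atp5d, the delta subunit of the ATP synthase, had 112 CPM in Cre replicate 1 and 120 to 121 CPM in the others. Cox4i2 had 0.822 CPM in Cre replicate 3, from 23 counts, and 0.544 to 0.571 CPM in the others. Cox6a2, a muscle isoform also known from parvalbumin interneurons, had 2.66 CPM in WT replicate 3 and 1.85 to 1.96 CPM in the other WT libraries, and Cre replicate 3 was as high, at 2.72 CPM.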

How the results depend on the processing

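No respiratory chain gene was called at an adjusted p under 0.05 under any of the alternatives run (other size factors, no filter on low counts, library totals without mitochondrially encoded genes, DESeq2, limma voom, the replicate block and each library left out). The lowest adjusted p of the 32 named genes under them was 0.891. The number of all genes called was 5, with 7 under DESeq2 and without the filter, 6 with the replicate block and 4 to 6 with 1 library left out. The number of members at an unadjusted p under 0.05 was 2, and it was 0 with the replicate block and 0 to 2 with 1 library left out. The number below 0 was 55, and 36 (without Cre replicate 1) to 65 with 1 library left out. The median of the 89 ran from -0.0301 to 0.0113 then, above 0 without WT replicate 1 (0.00216), WT replicate 4 (0.003) or Cre replicate 1 (0.0113). Among the named genes, 24 of 512 alternative values lay on the other side of 0, in 8 genes whose fitted size was at most 0.076. With 1 library left out, Ndufb9 ran from -0.0694 to 0.0201, Cox4i1 from -0.0722 to 0.0165, Cox6a1 from -0.0513 to 0.0144, Cox6a2 from -0.0471 to 0.208, Cox6b1 from -0.0603 to 0.0223, Cox7a1 from -0.337 to 0.251, Cox7a2l from -0.0167 to 0.0143 and Cox8a from -0.0433 to 0.025. Cox7a1 was also above 0 with the replicate block (0.0424) and voom (0.152), and Cox7a2l with library totals alone (0.00398) and upper quartile factors (0.00478). The medians of complexes I and IV also crossed 0 with 1 library left out (to 0.0153 and 0.0181). In the WT shares, the longest transcript as length gave Atp5g1 7.98%, Atp5g2 18.3% and Atp5g3 73.7%, and the exons of all transcripts gave Atp5g3 64.7%, Ndufa4l2 1.74%, Cox6b2 0.741% and Cox4i2 0.448%. Levels per kb were recomputed with both lengths too, as a choice added after the data were seen: the WT medians of complexes I to V were 41.0, 60.3, 81.9, 84.4 and 73.8 with the longest transcript. The causes were not tested. Depth limits the 6 genes under 10 CPM.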
